A study of Mus musculus with 5 samples.

Results

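The hematopoietic ETS factors examined here are the transcription factor genes Spib, Ets1, Fli1, Elf1, Elf4, Etv6 and Erg, together with the gene of PU.1, which the table writes as Sfpi1. They were taken by symbol, which gave 9 transcript rows of 8 genes, out of 26531 rows of 22098 genes. Ets1 has 2 rows and every other gene has 1. The 5 sequenced RNA libraries come from bone marrow cells sorted from C57BL/6 mice that were 6 to 7 weeks old. The sort took Hardy fraction A, the earliest B lineage fraction of Hardy's scheme, without removing other lineages, and the labels call the cells proB cells. The wt group has 2 libraries, dF1 (genotype Ikaros_ZnF1-/-, a mutant of the first DNA-binding zinc finger of Ikaros) has 2, described as biological replicates, and dF4 (Ikaros_ZnF4-/-, a mutant of the fourth) has 1, which the design text describes as low in coverage. Ikaros is a zinc finger protein that controls gene expression in lymphoid and other blood cells, and the series asks on which hematopoietic lineages it acts. The alleles are not described further in the labels, and nothing in them ties the wt libraries to different animals, so the p-values measure the spread between these libraries alone, and that spread may be technical in wt.

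ETS factors share a winged helix-turn-helix DNA-binding domain, the ETS domain, which reads a GGAA core. PU.1 and Spi-B, the product of Spib, form the most divergent branch of the family and can bind the same sites, often with Irf4 or Irf8 as a partner. PU.1 is needed for myeloid and early lymphoid cells, and its dose differs between lineages, whereas Spi-B is a factor of plasmacytoid dendritic cells (pDCs) and B cells. Ets1 acts in T, NK and B cells, Fli1 and Erg in stem cells, megakaryocytes and endothelium, Elf1 and Elf4 in lymphocytes, and Etv6 is a repressor needed by adult stem cells.

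The libraries were not alike in makeup. The levels, in RPKM (read density along a transcript, corrected for the size of the library), summed to between 286080 and 345446 over all rows. Across the tested rows the correlation of dF4 with the other libraries was 0.74 to 0.77, against 0.96 to 0.98 among those. The depth of dF4 was about 598000 reads, as read from its low values, and that of the others is unknown. The label proB was set against markers. The pDC list (16 genes) summed to 4913 to 6375 RPKM in wt and dF1 and the NK list (12 genes) to 1257 to 3180, while the early B list (13 genes) summed to 430.9 to 628.6. In dF4 the pDC list summed to 786.1 RPKM and the neutrophil list (16 genes) to 34164, against 229.1 to 1110 in the others. All 16 pDC markers were lower and all 16 neutrophil markers higher in dF4 than in both wt libraries, where 42.9% of rows with a mean of at least 5 RPKM were lower and 43.2% higher. Beside the ETS genes, fewer cells of a type and less RNA per cell cannot be told apart in such bulk samples, and the part of cell makeup in the differences below was not tested.

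**Figure D1:**
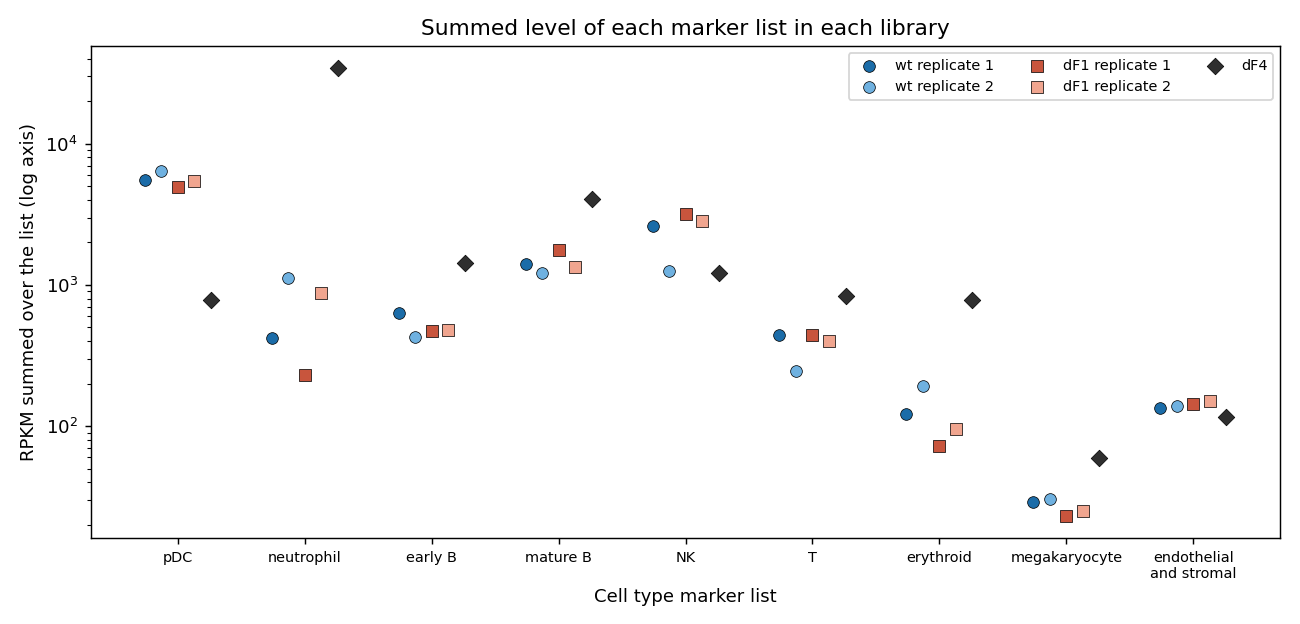
RPKM summed over each fixed cell type marker list (log axis) in each of the 5 libraries, 1 point per library. The neutrophil list is at 34164 in dF4 and 229.1 to 1110 in the other libraries, while the pDC list is at 786.1 in dF4 and 4913 to 6375 in the others.

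Sequence upstream of the start is shown for Spib, the most abundant member, and for Etv6, whose wt and dF1 values lie close together, because both have a single start in the table. The RefSeq promoter table, on build GRCm38.p6, matched 5 of the 8 genes (Spib, Elf1, Elf4, Etv6 and Erg) with 9 windows, of which the 250 bases before the start were used. The Spib window is chr7:44532072-44532321 on the minus strand and the Etv6 window is chr6:134035450-134035699 on the plus strand. Each is printed 5′ to 3′ along the gene, and capitals mark the ETS core GGAA or its reverse complement TTCC.
Spib: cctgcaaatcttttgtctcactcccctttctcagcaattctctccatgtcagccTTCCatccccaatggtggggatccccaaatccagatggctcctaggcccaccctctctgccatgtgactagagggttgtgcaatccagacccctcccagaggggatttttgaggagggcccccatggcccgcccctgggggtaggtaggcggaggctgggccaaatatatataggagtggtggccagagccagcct
Etv6: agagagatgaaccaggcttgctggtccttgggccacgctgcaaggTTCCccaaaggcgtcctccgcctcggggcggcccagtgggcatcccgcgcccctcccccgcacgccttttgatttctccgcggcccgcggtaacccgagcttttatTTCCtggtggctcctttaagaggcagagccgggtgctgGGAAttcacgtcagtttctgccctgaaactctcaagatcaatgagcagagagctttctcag

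On both strands the Spib window held 1 ETS core and 0 copies of the Ikaros core GGGAA, which contains the ETS core. The Etv6 window held 3 ETS cores, of which 2 lay within GGGAA. The longer PU.1 and Spi-B site GAGGAAGT was in 0 of the 9 member windows. Of 32851 windows of this length, 93.4% held GGAA (median 3 matches), 56.2% held GGGAA and 2.44% held GAGGAAGT. A match is a description of these letters and not a bound site.

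Spib was the most abundant member. It was at 295.3 and 382.7 RPKM for wt, 334.3 and 364.6 for dF1 and 155.7 for dF4. Its row ranked 77 and 46 from the top of the table for wt, 68 and 59 for dF1 and 237 for dF4. The dF1 values lay inside the wt range, and dF4 lay below all other libraries.

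PU.1 was among the low members in wt and dF1. It was at 22.5 and 25.8 RPKM for wt, 18.5 and 29.6 for dF1 and 80.2 for dF4. The wt values lay between those of the dF1 libraries, and dF4 lay above all 4. The ratio of Spib to PU.1 was 13.1 and 14.8 for wt, 18.1 and 12.3 for dF1 and 1.94 for dF4.

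Ets1 was the next most abundant. Its main row (NM_001038642) was at 162.1 and 89.1 RPKM for wt, 138.2 and 130 for dF1 and 131.9 for dF4, so the wt libraries bracketed all others. Its other row (NM_011808) followed at 10.2 and 5.6 for wt, 8.6 and 8.1 for dF1 and 7.3 for dF4, and the ratio of the rows was 15.9 to 16.1 in wt and dF1 and 18.1 in dF4. How reads were shared between the rows is not given, so they are not separate measurements. Fli1, the neighbour of Ets1 in the genome, was at 37.6 and 34.4 RPKM for wt, 34.8 and 29.8 for dF1 and 40.3 for dF4. It spanned a narrow range, with dF4 just above the rest.

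The ELF factors were at similar levels. Elf1, which regulates lymphoid genes, was at 87.3 and 76.8 RPKM for wt, 80.1 and 75.8 for dF1 and 44.4 for dF4. Elf4, which lies on the X chromosome and restrains lymphocyte proliferation, was at 75.5 and 67.7 RPKM for wt, 84.9 and 78.8 for dF1 and 55 for dF4. For both, dF4 was the lowest library, and for Elf4 both dF1 libraries lay above both wt libraries. Xist, which marks an inactive X chromosome, lay between 77.7 and 93.2 RPKM in 3 libraries (both wt and the first dF1 replicate). It is listed at 0 for the remaining dF1 library and for dF4. If Xist tells the sex of the animals, Elf4 was read in libraries of both sexes and the dF1 libraries differ in sex. Sex and genotype then cannot be told apart between dF4 and wt, for Elf4 or any other member.

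The stem cell factors were lower. Etv6 was at 28.3 and 30.7 RPKM for wt, 28.5 and 28.7 for dF1 and 22.1 for dF4. Erg was at 15.6 and 8.8 RPKM for wt, 10.2 and 8.8 for dF1 and 20.4 for dF4. Etv6 varied little outside dF4, whereas wt replicate 1 stood above the other wt and dF1 libraries in Erg.

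**Figure D2:**
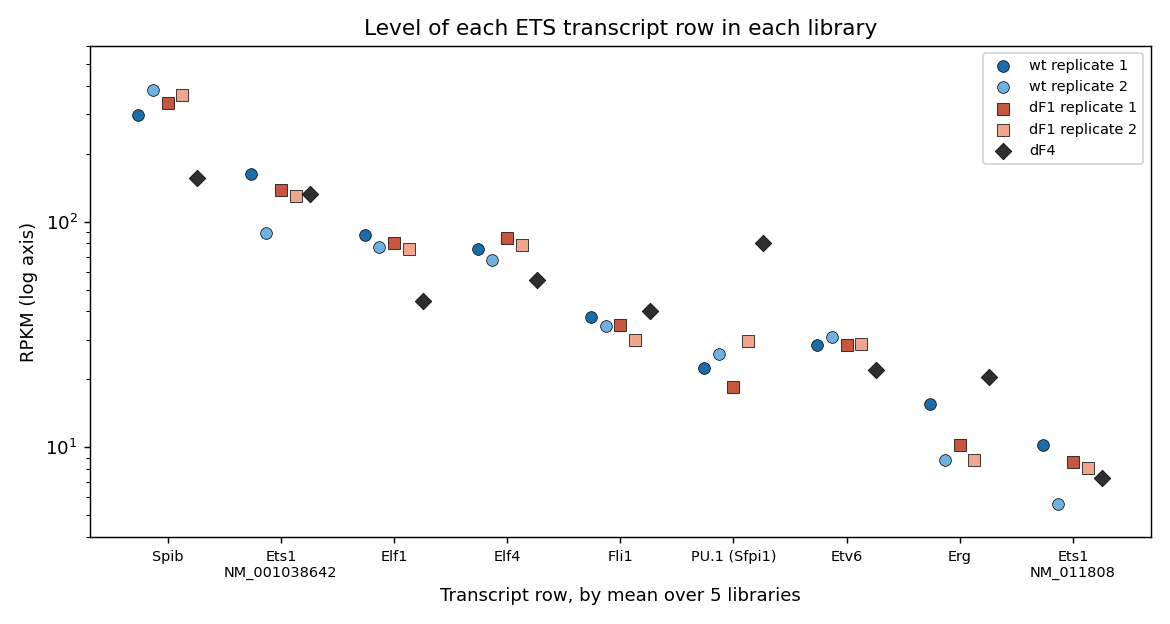
RPKM (log axis) of the 9 transcript rows of the 8 ETS genes, 1 point per library. Spib is the highest row in every library, and PU.1 is at 80.2 in dF4 against 18.5 to 29.6 in the others.

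By mean level in wt the order was Spib, Ets1, Elf1, Elf4, Fli1, Etv6, PU.1 and Erg, by their main rows. Spib at 339 ± 61.8 RPKM (SD, n = 2) was 2.7-fold above Ets1 at 126 ± 51.6 (n = 2), and the ranges of neighbours in this order did not overlap in wt. With 2 libraries a group this is a weak criterion. Elf1 and Elf4 came close, with wt means of 82.05 and 71.6 RPKM, and in dF1 their order was turned and their ranges overlapped, as did those of Etv6 and PU.1.

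Summed over the 9 rows, the members came to 734.4 and 721.6 RPKM for wt, 738.1 and 754.2 for dF1 and 557.3 for dF4. Spib made up 40.2% and 53% of this sum for wt, 45.3% and 48.3% for dF1 and 27.9% for dF4, while PU.1 made up 2.51% to 3.92% in wt and dF1 and 14.4% in dF4. Ets1 made up 13.1% to 23.5% in wt and dF1 and 25% in dF4. The summed level was thus nearly level across wt and dF1 although the shares of Spib and Ets1 moved between wt replicates.

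**Figure D3:**
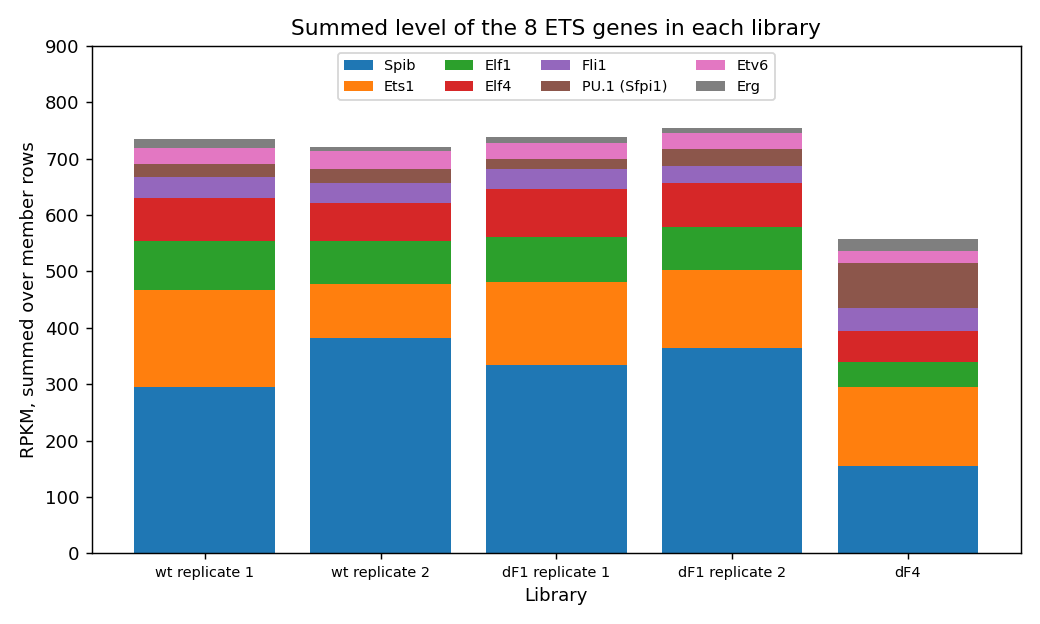
RPKM of the 8 ETS genes stacked for each library, with the rows of Ets1 summed. The bars reach 721.6 to 754.2 in wt and dF1 and 557.3 in dF4, where the Spib segment is smaller and the PU.1 segment larger.

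The wt replicates differed most in Ets1 and Erg. On the log2(RPKM + 1) scale, wt replicate 1 exceeded wt replicate 2 by 0.86 in the main Ets1 row and by 0.76 in Erg. Of 8759 rows with a mean of at least 5 RPKM, 3.15% had wt replicates at least as far apart as Ets1, and 3.95% at least as far as Erg. The NK list moved the same way, with 12 of 12 markers higher in wt replicate 1 and sums of 2615 and 1257 RPKM. The T cell list (10 genes) was at 441 and 247.3 RPKM with 9 of 10 higher in wt replicate 1, and the early B list at 628.6 and 430.9 with 12 of 13 higher. Il2rb, the interleukin receptor chain of NK cells, was at 420.4 and 179.9 RPKM in wt. Spib went the other way, by -0.37, as did the pDC sum (5559 and 6375 RPKM), though 5 of 16 pDC markers were higher in wt replicate 1. The neutrophil sum (420.3 and 1110, 1 of 16 markers higher in wt replicate 1) and the erythroid sum (121.7 and 191.2, 0 of 10 higher) also went this other way. The part of these markers in the Ets1 difference was not tested.

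The comparison of dF1 with wt asked what loss of finger 1 does to these transcripts, and it found no member past the test. Of the 9 rows, 0 passed limma's adjusted p of 0.05, where the share called over all 12215 tested rows was 0%. At an unadjusted p under 0.05 there were also 0 member rows, against 7.16% of all rows (875). All 9 rows passed the filter on low values. Over the 8 genes, by their main rows, 3 were higher and 5 lower in dF1, with a median log2 difference of -0.04, and over all tested rows the median was 0.01. All 12 NK markers were higher in dF1, their sum 1.55 times the wt mean, though the wt replicates lay 2.08-fold apart. Of 16 pDC markers 12 were lower and 4 higher (0.868 times), and of 10 erythroid markers 8 were lower and 2 higher (0.536 times). Over all tested rows 6279 were higher and 5883 lower. The part of cell makeup in the dF1 comparison was not tested.

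The intervals show which sizes of change the data leave. For Spib the log2 difference of dF1 from wt was 0.05 (SE 0.18, 95% interval -0.41 to 0.52, limma adjusted p = 0.962). For PU.1 it was -0.04 (SE 0.24, -0.65 to 0.57, limma adjusted p = 0.979). The intervals for Etv6 (-0.33 to 0.25), Elf4 (-0.12 to 0.50) and Elf1 (-0.39 to 0.25) were the narrowest, and those of the main Ets1 row (-0.59 to 0.91) and Erg (-0.99 to 0.43), the members whose wt replicates were far apart, were the widest. The adjusted p of all 9 rows lay between 0.806 and 0.979.

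Elf4 had the smallest p. Its mean was 71.6 RPKM (SD 5.52, n = 2) for wt against 81.9 (SD 4.31, n = 2) for dF1, a log2 difference of 0.19 (SE 0.12, limma adjusted p = 0.806). It was the single member row of 9 whose dF1 and wt ranges did not overlap, whereas 34.7% of all tested rows had ranges that did not overlap, 16.8% with dF1 higher. The sign of the dF1 difference did not hold when a library was left out for Spib, PU.1, Ets1, Elf1, Etv6 and Erg. For PU.1 it was 0.29 without dF1 replicate 1, and for the main Ets1 row it was -0.27 without wt replicate 2.

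The comparison of dF4 with wt showed members that differed in both directions. PU.1 was 3.32-fold higher in dF4 than the wt mean of 24.2 RPKM, and Spib was 2.18-fold lower than its wt mean of 339 RPKM. With 1 dF4 library there is no test. A row was counted as different in dF4 if its dF4 value fell outside the wt range, differed from the mean of wt by at least 1 (log2), had wt replicates no more than 0.5 apart and had a mean of at least 5 RPKM. That mean includes dF4, so a row near 0 in wt can pass as higher through its dF4 value alone. By this rule PU.1 counted as higher (log2 difference 1.69) and Spib as lower (-1.11), which is 2 of the 6 member rows whose wt libraries were within 0.5. Over all 7867 such rows 18.2% counted, 7.75% as higher and 10.4% as lower, and with 6 member rows the shares are not told apart from that background.

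The PU.1 value in dF4 rests on about 64 reads, and its exact 95% Poisson interval, which covers counting error only, was 61.6 to 102 RPKM, above every other library. The Spib value rests on about 260 reads, with an interval of 137 to 176 RPKM, below every other library. Against wt replicate 1 alone the Spib difference was -0.92, and it then no longer reached the size of 1. After quantile normalization it was -1.28, but the wt libraries lay 0.504 apart and it no longer counted. The PU.1 difference lay between 1.55 and 1.79 over the alternatives run.

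The other members differed less. Elf1 was 1.85-fold lower in dF4 (log2 difference -0.87, about 112 reads, interval 36.5 to 53.4 RPKM). Elf4 was lower by a log2 difference of -0.37 and Etv6 by -0.40, on about 192 and 73 reads. Fli1 (0.16), the main Ets1 row (0.13) and the other Ets1 row (-0.05) were close to wt. Erg was at a difference of 0.75, but on about 27 reads its interval of 13.4 to 29.5 RPKM held the 15.6 of wt replicate 1. Against wt replicate 2 alone it was 1.13.

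In all, dF4 lay below all 4 other libraries in 4 of the 9 rows (Spib, Elf1, Elf4 and Etv6) and above them in 3 (PU.1, Fli1 and Erg). Among rows with a mean of at least 5 RPKM, 39% lay below and 38.6% above, so these counts are near the background. Markers moved beside them. The pDC sum in dF4 was 0.132 times the wt mean and Spib was at 0.459 times its wt mean. The neutrophil sum was 44.6 times, the mature B sum (8 genes) 3.11 times and the early B sum 2.71 times the wt mean, while PU.1 was 3.32 times. Cd74 alone was at 3208 of the 4085 RPKM of the mature B sum in dF4. All 8 mature B markers were higher than in both wt libraries, and of 13 early B markers 10 were higher and 2 lower. The NK sum was 0.624 times the wt mean, with 7 of 12 markers lower than in both wt libraries and 0 higher. The erythroid sum (10 genes) was 4.97 times the wt mean, with 9 of 10 markers higher than in both wt libraries, and the T sum 2.44 times, with 10 of 10 higher. Beside these marker counts, 43.2% of rows with a mean of at least 5 RPKM were higher in dF4 than in both wt libraries and 42.9% lower. Among megakaryocyte and endothelial markers, Gp6, Tek and Esam were listed at 0 in every library. Pf4, the platelet factor, was at 19.9 RPKM in dF4 and at or below 0.2 elsewhere. Its dF4 value rests on about 7 reads, with a Poisson interval of 7.97 to 40.8 RPKM. Of 10 megakaryocyte markers, 7 were higher and 1 lower in dF4 than in both wt libraries, and their sum was 1.99 times the wt mean. Gp1bb went from 0.3 RPKM in both wt libraries to 11.8 in dF4, on about 13 reads. By the size rule only 1 of the 10 could be counted, as lower (Itgb3). Of 4 endothelial and stromal markers that could be counted, 2 were lower (Pecam1 and Cdh5) and 1 higher (Cxcl12). Over all rows 10.4% counted as lower and 7.75% as higher. Itgb3, an integrin chain of platelets, went from 27.6 and 28.8 RPKM for wt to 9.6 for dF4, Pecam1, an adhesion molecule, from 79.3 and 86.2 to 33.4, and the cadherin Cdh5 from 47.8 and 40.1 to 9.7. The chemokine Cxcl12 counted as higher, from 0.7 in both wt libraries to 62.6, but it reached the mean that the rule requires only through dF4. The part of these cells in the ETS differences was not tested.

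**Figure D4:**
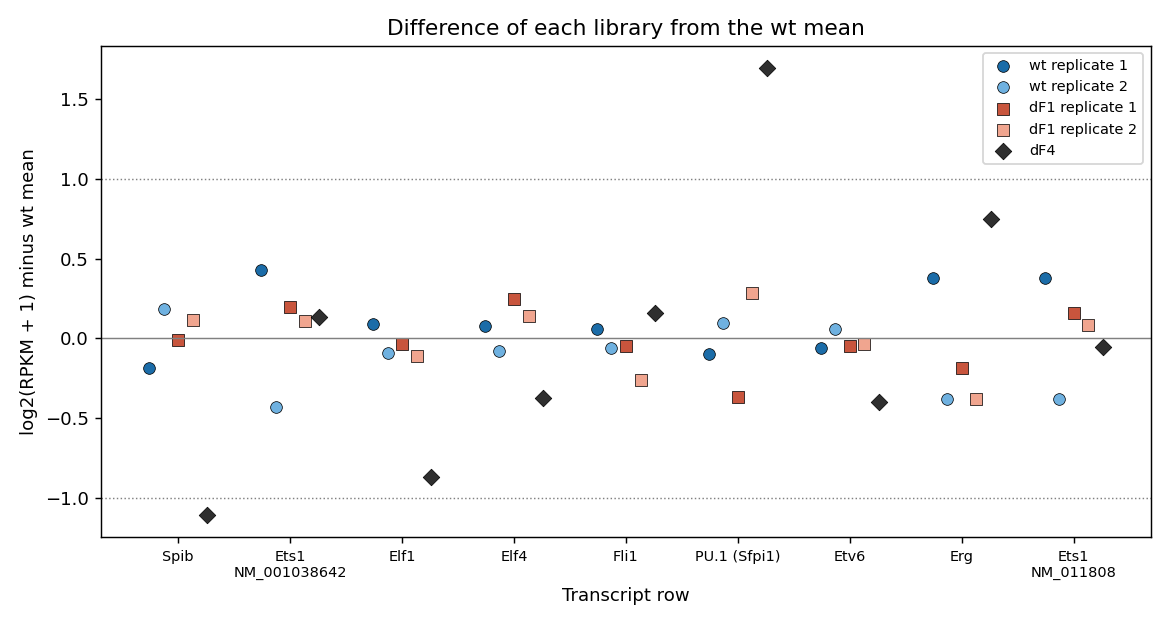
Difference of each library from the wt mean on the log2(RPKM + 1) scale for the 9 rows, with dotted lines at 1 and -1. The dF4 points lie at 1.69 for PU.1 and -1.11 for Spib, and the dF1 points lie around 0.

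Of the 18 remaining ETS genes in the table, 9 reached a mean of 1 RPKM, and those that did not stayed at or below 0.9 RPKM in every library. Elf3, Elf5, Etv2, Fev and Spdef, several of them epithelial or developmental factors, were listed at 0 throughout. The most abundant was Elf2, a close relative of Elf1, at 43.8 and 41 RPKM for wt, 38.8 and 40.4 for dF1 and 38.7 for dF4. Elk4, a factor of the serum response, was at 27.5 and 24.8 in wt and 31.9 in dF4, its relative Elk3 at 21.3 and 17 in wt and 24.9 in dF4, and the repressor Etv3 at 17.3 and 15.1 in wt and 23.4 in dF4. These 3 were higher in dF4 than in both wt libraries, by log2 differences of 0.28 to 0.51. Among rows with a mean of at least 5 RPKM, 43.2% were higher in this way. The Poisson intervals of Elk4 (24.8 to 40.3 RPKM) and Elk3 (19.1 to 31.8) in dF4 held values of wt. Elk3 in dF4 also lay between its dF1 values of 23.9 and 25 RPKM.

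For dF1, 0 of the 9 tested others passed the adjusted p and 1 had an unadjusted p under 0.05, against 7.16% of all rows. For dF4, 0 of the 6 with a mean of at least 5 RPKM counted by the size rule, against 18.2% of all rows that could be counted. With 6 genes these shares are not told apart. Ets2, which neighbours Erg in the genome and was chosen after its values were seen, was at 2.3 and 1.8 RPKM for wt, 2.5 and 1.9 for dF1 and 8.9 for dF4, a log2 difference of 1.70 in dF4 with a mean too low for the rule. Erf, a repressor, also chosen after its values were seen and too low for the rule, was at 2.2 and 2.4 RPKM for wt, 3.5 and 3.3 for dF1 and 5.3 for dF4 (0.93). The third PU.1 branch gene, Spic of red pulp macrophages, was at or below 0.9 RPKM in every library. The 8 members held 83.7% to 84.7% of the RPKM of the family's 26 genes in wt and dF1 and 78% in dF4.

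Factors that act with ETS proteins were examined next. Of 15 partners tested, 0 passed the adjusted p between dF1 and wt, with a median log2 difference of -0.07. At an unadjusted p under 0.05 there were 3, against 7.16% of all tested rows. Irf8, which binds with PU.1 and Spi-B, was at 1190 and 1317 RPKM for wt, 1020 and 1360 for dF1 and 215.8 for dF4, 5.81-fold below the wt mean. Irf4, its relative, which was chosen after its values were seen, was at 12.5 and 7.8 for wt, 9.4 and 11.4 for dF1 and 45.8 for dF4. Thus Spib and Irf8 were low in dF4 while PU.1 and Irf4 were high.

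Myb, a progenitor factor, was at 59 and 65.2 RPKM for wt, 46.4 and 42.9 for dF1 and 105.4 for dF4. Its dF1 difference of -0.47 (SE 0.12) did not pass over all rows (limma adjusted p = 0.526). Cbfb, the partner of the Runx factors, was at 52.5 and 52.3 in wt and 42.4 in dF4, and the coactivator Ep300 at 31.5 and 28.9 in wt and 38.6 in dF4. By the size rule 2 of the 10 partners that could be counted were higher (Pax5 and Cebpa, by 3.06 and 1.05 on the log2 scale) and 1 lower (Irf8), where 7.75% of all rows counted as higher and 10.4% as lower.

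Genes known as PU.1 targets in myeloid cells went both ways in dF4. Of 13, 9 were above and 4 below the wt mean, with a median log2 difference of 1.86, where the median over all tested rows was 0.02. By the size rule 3 counted as higher and 2 as lower of 8 that could be counted (7.75% and 10.4% over all rows). Of the higher ones Csf1r, named for this, reached the required mean only through dF4 (4.7 and 3.2 RPKM in wt, 41.7 in dF4). Lyz2, which encodes lysozyme, was at 33.7 and 40.2 RPKM for wt, 9.9 and 37.7 for dF1 and 1124 for dF4. Mpeg1, a pore-forming protein of phagocytes, went the opposite way, from 1147 and 1131 in wt to 118 in dF4. The integrin chain Itgb2 was at 248.2 and 187.5 in wt and 348.4 in dF4, and the oxidase subunit Cybb at 218.5 and 214.1 in wt and 166.1 in dF4. For dF1, 0 of 13 passed, 1 had an unadjusted p under 0.05 (7.16% over all tested rows), and the median was -0.08.

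Known targets of PU.1 and Spi-B in lymphoid cells were also split. Of 11 in the table, 8 were above and 3 below the wt mean in dF4, with a median of 1.34, and 4 counted as higher and 1 as lower of 8 that could be counted, beside the same 7.75% and 10.4% over all rows. Of the higher ones Fcer2a, named for this, reached the required mean only through dF4 (0.5 and 0.7 RPKM in wt, 31.1 in dF4). Cd79b, a signaling chain of the B cell receptor, was at 85.1 and 59.6 RPKM for wt, 90.3 and 108 for dF1 and 371.7 for dF4. The lower ones were the cytokine receptor Flt3 (135.1 and 144.1 in wt and 5.5 in dF4), the adaptor Blnk (124.2 and 138.6, and 71.9) and Il7r, the interleukin 7 receptor (99.3 and 85.9, and 51.3).

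For dF1, 0 of these 11 passed the adjusted p and 4 had an unadjusted p under 0.05, against 7.16% of all tested rows. In 4 the dF1 libraries lay above both wt libraries and in 4 below, against 16.8% and 17.9% of all tested rows. Il7r was among the lower ones, at 73 and 73.5 RPKM in dF1 (log2 difference -0.33, SE 0.13, limma adjusted p = 0.686), as was Blnk at 110.6 and 95.7 (-0.35, SE 0.14, limma adjusted p = 0.694). Besides Il7r, the genes with an unadjusted p under 0.05 were Blk, Cd22 and Fcgr2b, named here for that p. Blk was at 35.8 and 34.5 RPKM for wt and 14.4 and 13.8 for dF1 (-1.26, SE 0.11, limma adjusted p = 0.126). Cd22 differed by -1.03 (SE 0.21, limma adjusted p = 0.376) and Fcgr2b by 0.69 (SE 0.13, limma adjusted p = 0.34). The members of this list overlap the early and mature B marker lists.

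**Figure D5:**
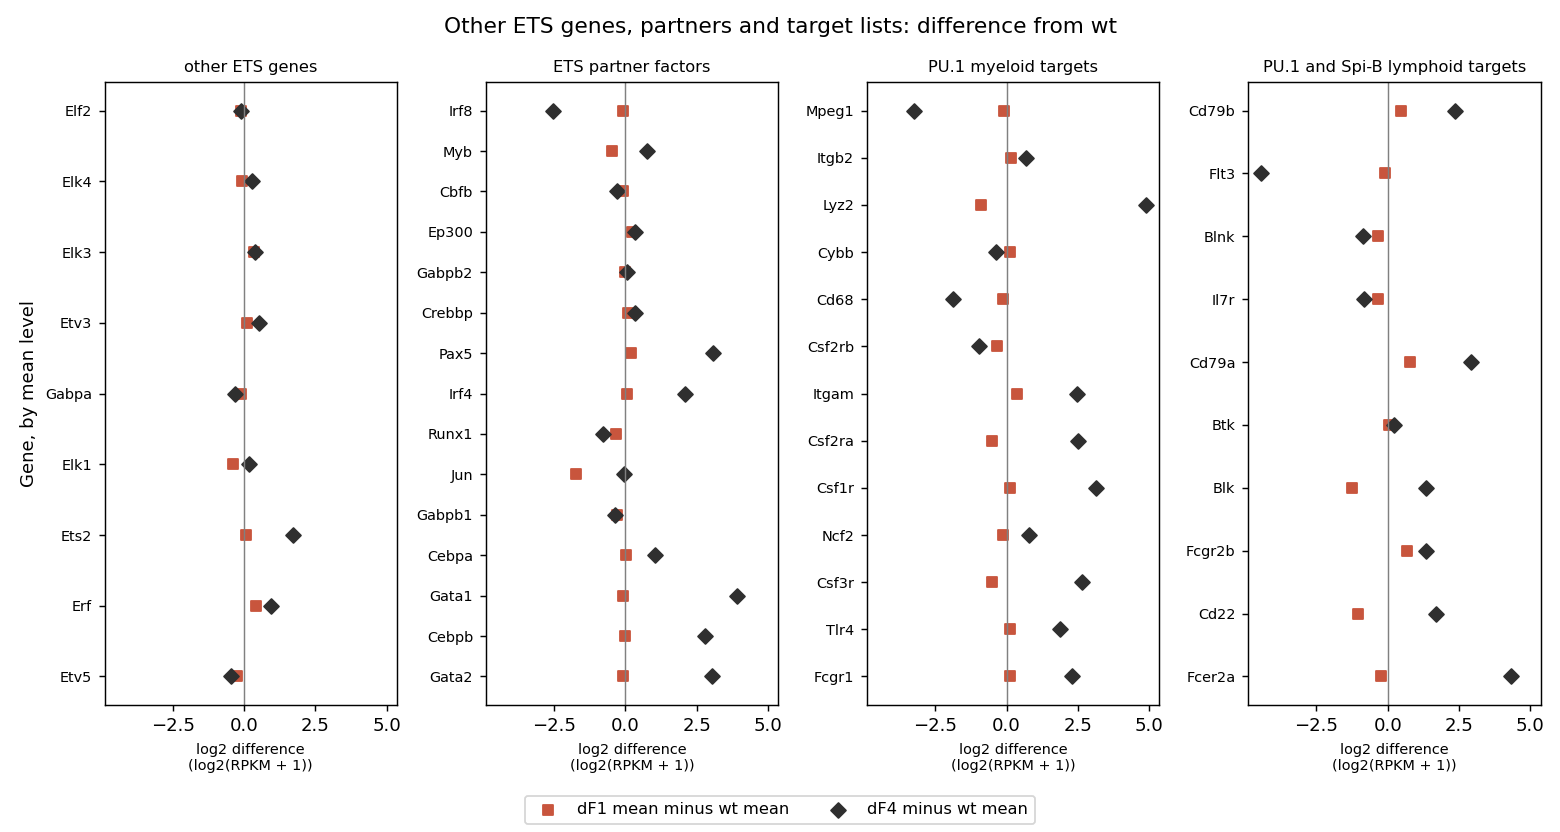
Difference from the wt mean on the log2(RPKM + 1) scale for genes with a mean of at least 1 RPKM in 4 fixed lists, for the dF1 mean (squares) and the single dF4 library (diamonds), with 1 lymphoid target not drawn. The dF4 values of the other ETS genes run from -0.45 for Etv5 to 1.70 for Ets2, while the target lists hold dF4 values from -4.43 for Flt3 to 4.90 for Lyz2.

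The genes closest in profile to Spib and PU.1 were found by the root mean square distance of centred log2(RPKM + 1) over the 5 libraries, among 7752 named genes with a mean of at least 5 RPKM. For Spib they were Gna11, a G protein subunit (distance 0.06), the metabolic enzyme Grhpr (0.067) and the semaphorin Sema4d (0.07), against a median distance of 0.513 over all candidates. Sema4d was at 152.5 and 178.5 RPKM for wt, 173.2 and 175.2 for dF1 and 71.7 for dF4. For PU.1 they were Ddah2 (0.066), the ubiquitin-conjugating enzyme Ube2o (0.074) and the DNA replication helicase Dna2 (0.083), against a median of 0.746. Ube2o was at 8.7 and 9.5 RPKM for wt, 7 and 10.6 for dF1 and 28.2 for dF4. With 5 libraries such likeness is a description of few points.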

How the data were processed

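The authors deposited 1 table of RPKM values by RefSeq transcript, as the unit is named per the file headers, rounded to 1 decimal. TopHat and bedtools are named in the submitters' processing notes, as is mm9 for the genome build. Their versions, the strand setting and how reads were divided among transcripts are not stated in the sources used here. The table's 1 line that named no gene was left out. The 8 genes and all lists were chosen with earlier results of these data known.

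Differences were computed on log2(RPKM + 1), which understates changes of low rows. The dF1 and wt libraries were compared, two-sided, with limma 3.58.1 (R 4.3.3; linear fit, moderated variances with a trend) on the 12215 rows whose mean of all 5 libraries reached 1 RPKM. P-values were adjusted over all of them (Benjamini-Hochberg, threshold 0.05). The limma step was run on simulated data with planted changes much larger than the member differences and 1 common spread. That run therefore says nothing on changes of the members' size. In dF4, 81.4% of 3945 low values were whole multiples of 1.67 RPM (within 0.1 read), which gave its reads, and the step was not resolved in the others. Each list gave up to 4 named genes (markers up to 3) with the highest mean, except where said. A gene with several rows was taken by its highest. Syk and Ly6g were not analysed here, and 1 gene of the lists counts in their totals but is not reported here by itself. Alternatives were pseudocounts of 0.1 and 5, other filters, quantile normalization, median centring, a replicate block, robust variances, a larger fold and leaving out libraries.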

Additional observations from a re-analysis of the deposited data

How the results depend on the processing

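Over 12 alternatives for the dF1 comparison, 0 of 9 member rows were called in each, with adjusted p between 0.42 and 1. Over all rows 25 were called at a filter of 5 RPKM and 33 with robust variances, against 0 in the other settings. The replicate numbers are not said to pair libraries. With the replicate block 0 rows were called, and the differences of replicate 1 from 2 in wt and dF1 correlated at 0.305 across 12215 rows. When each library was left out in turn, the dF1 difference changed sign in 6 genes and ranged from -0.13 to 0.24 for Spib, -0.36 to 0.29 for PU.1, -0.27 to 0.58 and -0.26 to 0.50 for the rows of Ets1, -0.16 to 0.021 for Elf1, -0.099 to 0.015 for Etv6 and -0.66 to 0.096 for Erg. Quantile normalization turned Spib to -0.070. The members past the size rule in dF4, 2 in all, fell to 1 (PU.1) after quantile normalization and without wt replicate 2, to 0 with a log2 size of at least 2, and came to 3, with Erg, without wt replicate 1. With a single wt library left, the limit of 0.5 between wt replicates could exclude no row. Erg, whose wt replicates lay 0.76 apart, did not meet that limit in the main setting. Over all rows the 1428 past the rule became 2595 at a filter of 1 RPKM and 424 under the larger size. The cause of the sign changes was not tested. Fits without 1 library compare 2 against 1 and assume the lone library varies like the group of 2. Low depth in dF4 limits Erg and the second Ets1 row most among the members.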
